A study of Mus musculus with 6 samples.

Results

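The enzymes that write, copy and oxidise DNA methylation were followed in hair follicle cells with mutations in the Polycomb ligases Ring1a and Ring1b. The genes are the 8 rows named Dnmt1, Dnmt3a, Dnmt3b, Dnmt3l, Uhrf1, Tet1, Tet2 and Tet3, taken by symbol from the 24453 symbols of the count files, and all 8 were found. RNA came from 3 libraries labelled HF_I53A, of genotype Ring1a-/- Ring1b-/I53A, and 3 libraries labelled HF_CTL, of genotype Control, all sorted from back skin at postnatal day 0. The I53A change is known to block the ubiquitin ligase activity of Ring1b, and the mutant genotype joins it with the loss of Ring1a and of a Ring1b allele, so the parts of these changes cannot be told apart. The sources used here do not give the alleles the controls carry, the strain, or what removes Ring1b and in which cells. The comparison asks how the RNA of these enzymes differs between mutant and control follicle cells.

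DNA methylation in mammals sits mostly on the cytosine of CpG dinucleotides. Dnmt3a and Dnmt3b place it on unmarked DNA, with Dnmt3l as a partner that has no catalytic activity of its own, and Dnmt1 copies it to the new strand behind the replication fork, where Uhrf1 recognises hemimethylated CpG and recruits it. The Tet proteins oxidise 5-methylcytosine, which leads to its removal. Dnmt1 and Uhrf1 are known to keep epidermal progenitors proliferating, and Polycomb complex PRC1 is known for sitting at CpG-rich promoters that carry little methylation.

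Library totals ran from 15661124 to 17278824 counts in the mutants and from 14335156 to 18811587 counts in the controls. Levels are given as CPM, the reads of a gene scaled to the library total after TMM normalization, and 1 CPM was 14.7 to 18.3 reads. Ring1, the gene of Ring1a, was at 3.23, 7.09 and 4.88 CPM in the mutants and 16.8, 22.1 and 21.1 CPM in the controls (log2 fold change -1.98, SE 0.33, edgeR adjusted p = 0.0113). Rnf2, the gene of Ring1b, was at 67.0 ± 3.68 CPM in the mutants and 59.8 ± 6.91 CPM in the controls (SD, n = 3 each, adjusted p = 0.736), and gene counts do not show its altered codon. The labels say hair follicle, while the sorting text describes a Sca1-positive gate. Ly6a, which encodes Sca1, was at 1.23 ± 0.245 CPM in the mutants and 0.851 ± 0.411 CPM in the controls, and all 13 follicle markers passed the filter, with a summed level of 3724 to 4341 CPM in the mutants and 4075 to 4327 CPM in the controls. Dermal fibroblast markers summed to 657 to 931 CPM in the mutants and 593 to 1027 CPM in the controls, and immune markers to 50.3 to 69.8 CPM in the mutants and 60.5 to 101 CPM in the controls. The immune list went both ways: 5 of its 6 tested genes had a negative log2 fold change, among them Cd68 (21.6 ± 4.42 CPM in the mutants and 36.7 ± 7.77 CPM in the controls, edgeR adjusted p = 0.145, and 0.0190 with the block), while H2-Ab1, an MHC class II gene, rose (20.4 ± 4.38 CPM in the mutants and 4.95 ± 2.93 CPM in the controls, edgeR adjusted p = 0.0476). Dermal papilla markers summed to 23.3 to 25.0 CPM in the mutants and 8.21 to 23.4 CPM in the controls. Endothelial markers summed to 12.05 to 27.5 CPM in the mutants and 9.39 to 13.6 CPM in the controls. Basal keratinocyte markers summed to 14622 to 19797 CPM in the mutants and 13203 to 16713 CPM in the controls. No gene of these lists was called on group alone, and with the block Krt5 of the basal list rose (edgeR adjusted p = 0.0476). Of the 5 tested papilla genes 4 were positive, and Alpl had 98 reads in the mutants and 14 in the controls (edgeR adjusted p = 0.115). Only 2 of 6 endothelial genes were tested. Of the others, Kdr, Tie1 and Emcn had 95, 58 and 31 reads in the mutants and 19, 4 and 2 in the controls, and Cldn5 14 and 20. Melanocyte markers summed to 28.0 to 63.4 CPM in the mutants and 27.6 to 50.6 CPM in the controls. Interfollicular and differentiation markers summed to 2409 to 3979 CPM in the mutants and 3896 to 5365 CPM in the controls, a sum carried by Krt1 and Krt10. Of its 7 tested genes none was called and 4 were positive (median log2 fold change 0.53), and with the block Krt1 fell and Grhl3 rose. Twist2, Mlana, Cd207, Cd3e and Tyrobp stayed under 1 CPM in every library, and Cd207 and Cd3e had no read in any mutant.

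None of the 7 tested genes was called at an adjusted p under 0.05, where 3.0% of the 14345 genes tested were called (2.59% higher and 0.404% lower in the mutants). Dnmt3l fell below the filter on low counts and was not tested. Uhrf1 and Dnmt1, the maintenance pair, were lower in every mutant library than in any control library and each had an unadjusted p below 0.05. Of all genes tested, 21.2% had groups without overlap (12.1% higher and 9.15% lower in the mutants) and 14.9% had such an unadjusted p, which are the shares to read 2 of 7 against. DESeq2 and limma-voom called none of the 7 either. A fit that takes the replicate number as a block called 1 of them, Uhrf1, as lower, against 9.38% of all genes in that fit (6.09% higher and 3.29% lower in the mutants).

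**Figure D1:**
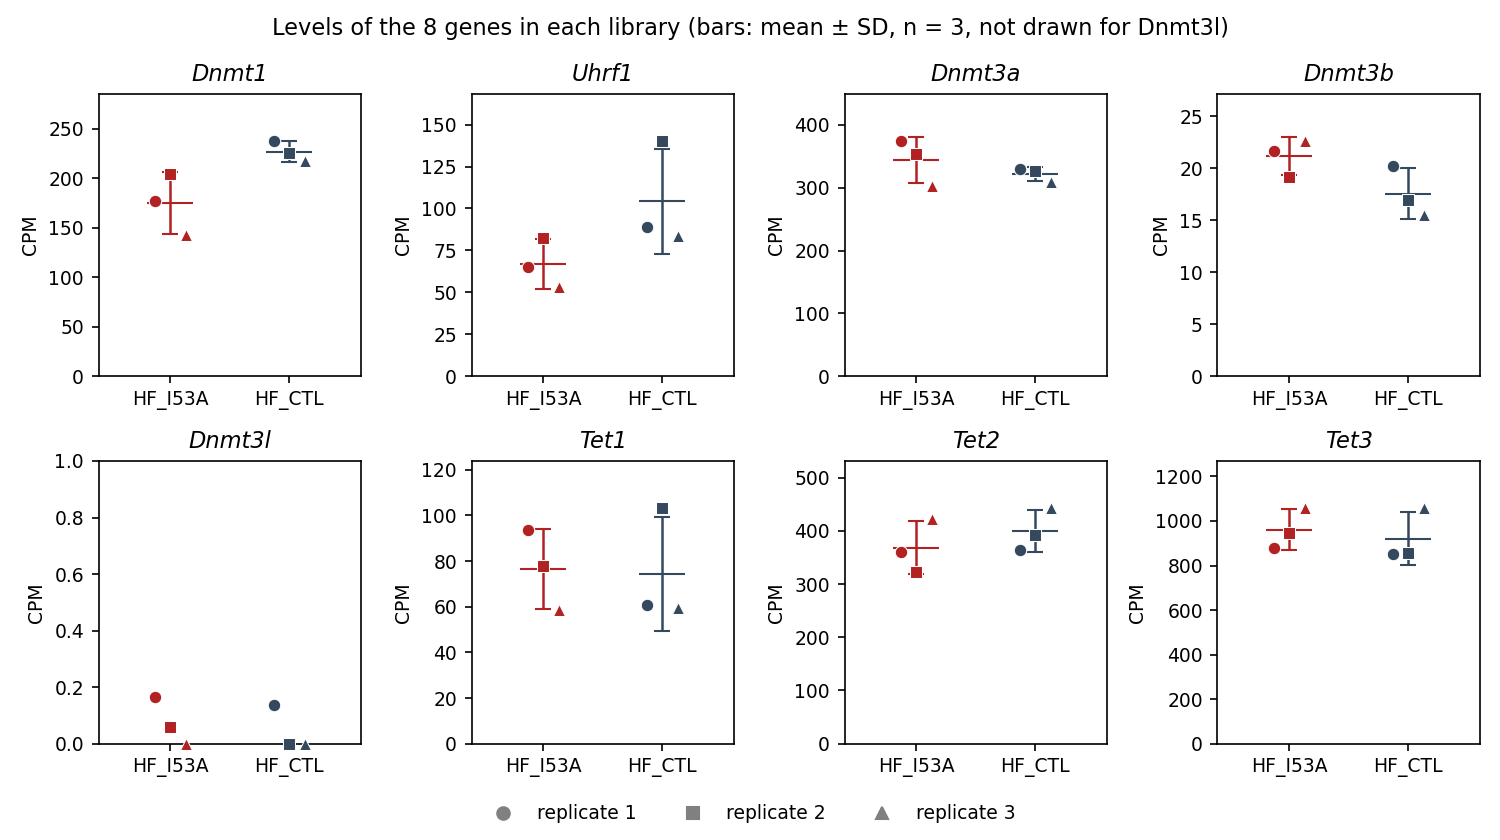
CPM (vertical axes, from 0, a scale of its own for each gene) of the 8 genes in the HF_I53A libraries on the left and the HF_CTL libraries on the right of each panel, marker shape giving the replicate number and bars the mean ± SD (n = 3 each). Dnmt1 and Uhrf1 did not overlap between groups, the other tested genes did, and Dnmt3l held 0 to 3 reads a library.

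Uhrf1, the reader of hemimethylated CpG that brings Dnmt1 to new DNA (chr17:56303321-56323486, plus strand, GRCm38), was at 64.9, 82.5 and 53.3 CPM in mutants 1, 2 and 3 and at 88.8, 140 and 83.3 CPM in controls 1, 2 and 3. The highest mutant, mutant 2, lay just under the lowest control, control 3, and control 2 stood well above the other controls. The mean was 66.9 ± 14.7 CPM in the mutants and 104 ± 31.5 CPM in the controls (SD, n = 3 each). The log2 fold change was -0.64 (SE 0.24), and it did not pass (edgeR adjusted p = 0.242). As a ratio the level was 0.642 of the control level, with a 95% interval of 0.441 to 0.936. As the groups did not overlap, each mutant was lower than the control of its own number whatever the numbering. The log2 ratios within numbers were -0.45, -0.77 and -0.64. With the replicate number as a block Uhrf1 fell by 0.62 (SE 0.12, edgeR adjusted p = 0.0155). Without control 2 the log2 fold change was -0.37 (adjusted p = 0.588). In RNA from bulk cells, fewer cells of a type and less RNA per cell cannot be told apart.

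Dnmt1, the maintenance methyltransferase (chr9:20907209-20959888, minus strand), was at 177, 205 and 143 CPM in mutants 1, 2 and 3 and at 238, 225 and 217 CPM in controls 1, 2 and 3. The groups did not overlap, and the mutants spread more widely than the controls, with a coefficient of variation of 17.8% against 4.66%. Means were 175 ± 31.1 CPM in the mutants and 227 ± 10.6 CPM in the controls (SD, n = 3 each), and the log2 fold change of -0.37 (SE 0.16) did not pass the test (edgeR adjusted p = 0.325, and 0.0688 with the replicate block). The ratio of 0.772 had a 95% interval of 0.598 to 0.996. Without mutant 3, the lowest library, the log2 fold change was -0.25 (adjusted p = 0.557). The oocyte and somatic forms of Dnmt1 differ in their first exon, and counts per gene do not separate them.

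**Figure D2:**
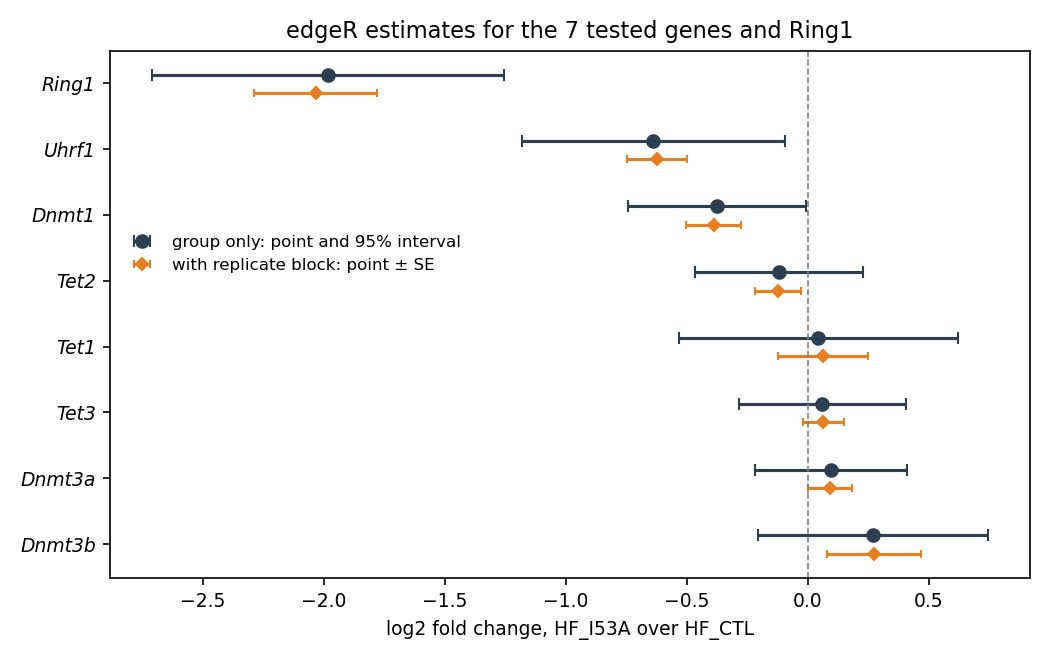
Log2 fold change of HF_I53A over HF_CTL (horizontal axis) for the 7 tested genes and Ring1, with circles and 95% intervals from the fit on group alone and diamonds ± SE from the fit with the replicate block. Ring1 lies near -2, the intervals of Uhrf1 and Dnmt1 end just below 0, and those of the other 5 genes span 0.

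Both maintenance genes are known to be transcribed as cells enter S phase, so they were set beside 36 genes of DNA replication. This list, like the others, was chosen with earlier results of these data known. Of these 36, 32 had a negative log2 fold change, as had 7213 of the 14345 genes tested, the share to read such counts against here and below. Among the 36, 1 fell (Mcm6, a subunit of the replicative helicase) and none rose, with a median of -0.55 against 0.00 over all genes tested. Mcm6 was at 55.9, 63.9 and 44.5 CPM in mutants 1, 2 and 3 and 131, 134 and 88.3 CPM in controls 1, 2 and 3 (log2 fold change -1.11, SE 0.21, edgeR adjusted p = 0.0239). It kept its call in 1 of the 6 fits without a library, with an adjusted p of up to 0.111 without control 1. Pola1 and Pola2, subunits of the polymerase that makes primers, had log2 fold changes of -1.01 and -1.07 (edgeR adjusted p = 0.0865 and 0.0887), and Mcm4 one of -0.71 (0.152). With the replicate block 11 of the 36 fell, among them these 3 and Mcm6, where 3.29% of all genes were called lower in that fit.

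The summed level of the replication genes was 1038, 1133 and 700 CPM in mutants 1, 2 and 3 and 1494, 1823 and 1081 CPM in controls 1, 2 and 3. The lowest library of each group was number 3, and mutant 2 lay above control 3. On the log2 scale, Uhrf1 stood 1.6, 1.89 and 1.92 above the mean of the 36 genes in mutants 1, 2 and 3 and 1.66, 2.05 and 2.04 above it in controls 1, 2 and 3. These groups overlapped, and the difference of -0.12 between their means gave p = 0.5 in a two-sided exact permutation test, whose smallest possible p with 3 libraries a side is 0.1. Within pairs of the same number Uhrf1 was lower in the mutant each time, and the paired exact permutation test gave p = 0.25, the smallest that 3 pairs allow. The difference ran from -0.24 without control 1 to -0.014 without mutant 1. Dnmt1 stood 3.19 ± 0.146 above the same mean in the mutants and 3.08 ± 0.348 above it in the controls (difference 0.12, exact permutation p = 0.7, paired p = 1). The difference for Dnmt1 was -0.059 without control 2 and 0.29 without control 3. With 3 libraries a group neither test can pass 0.05, so they show neither that the maintenance genes were lower relative to the replication genes nor that they moved alike. Of the 13 follicle markers, 9 had a negative log2 fold change and 1 was called. Lgr5, a stem cell and matrix marker, fell (83.6 ± 1.97 CPM in the mutants and 178 ± 37.7 CPM in the controls, SD, n = 3 each, edgeR adjusted p = 0.0125). Krt17, a keratin of the follicle, lay on the other side without overlap, at 348 ± 84.1 CPM in the mutants and 208 ± 23.0 CPM in the controls (edgeR adjusted p = 0.0766, and 0.00366 with the block). With the block Shh and Edar fell as well, and the part of these markers in the levels of Dnmt1 and Uhrf1 was not tested.

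**Figure D3:**
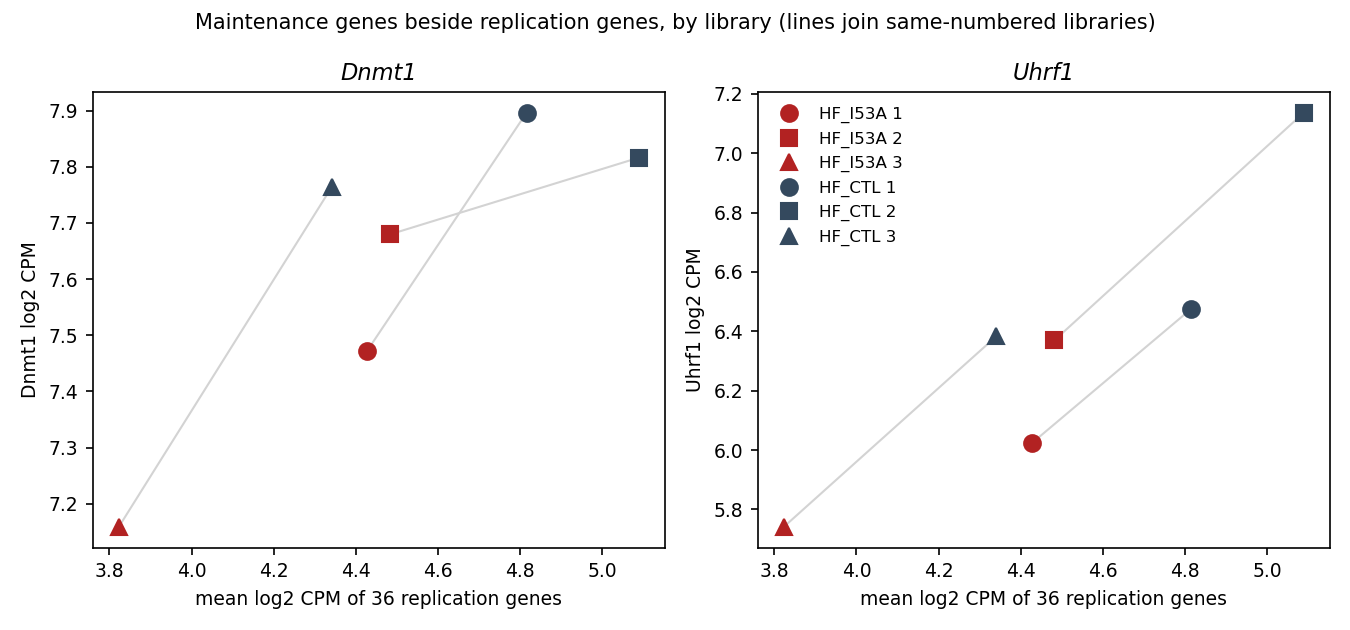
Log2 CPM of Dnmt1 (left) and Uhrf1 (right) on the vertical axis against the mean log2 CPM of 36 replication genes on the horizontal axis, 1 point per library, HF_I53A in red and HF_CTL in dark blue, with lines joining libraries of the same number. Every line runs down and to the left, from the control to the mutant of its number, and mutant 3 is lowest on both axes.

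Showing the sequence at the transcript starts of these 2 genes was part of the plan, and any link to their levels was not tested. In 300-base windows of RefSeq on GRCm38.p6 (250 bases before a start to 50 after it), all 8 genes had at least 1 window. The E2F-type motifs TTTCCCGC, TTTGGCGC, TTTCGCGC and TTTGCCGC were searched on both strands. Among the 8 genes, only Dnmt1, in 1 of 3 windows, and Uhrf1, in 1 of 2, held a match, with no matches overlapping. Of all genes with a window 2.6% held a match, as did 11 of the 28 replication genes with a window and 2.26% of the 32851 windows. The matches are printed 5′ to 3′ on the strand of the gene, with the matching letters in capitals.
Dnmt1, chr9:20952824-20952853, minus strand, first capital at -219 from the start, capitals are the reverse complement of TTTCGCGC: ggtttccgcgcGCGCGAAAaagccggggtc
Dnmt1, chr9:20952574-20952603, minus strand, first capital at 33 from the start: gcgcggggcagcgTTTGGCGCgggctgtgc
Uhrf1, chr17:56304117-56304146, plus strand, first capital at -185 from the start, capitals are TTTCGCGC: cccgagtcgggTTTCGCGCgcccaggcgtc
A match of letters is a description and does not show that a factor binds there.

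The de novo enzymes gave no call in either direction. Dnmt3a (chr12:3806007-3914443, plus strand), which with Dnmt3b methylates unmarked DNA, was at 375, 354 and 303 CPM in mutants 1, 2 and 3 and 330, 327 and 309 CPM in controls 1, 2 and 3. The controls lay inside the range of the mutants. Means of 344 ± 36.8 CPM in the mutants and 322 ± 11.2 CPM in the controls gave a log2 fold change of 0.10 (SE 0.14, edgeR adjusted p = 0.835), and the ratio of 1.07 had a 95% interval of 0.859 to 1.33. Dnmt3aos, an antisense transcript that overlaps 133 bases of Dnmt3a exons, had 55, 11 and 31 reads in mutants 1, 2 and 3 and 32, 1 and 18 reads in controls 1, 2 and 3, against 4543 or more for Dnmt3a, and reads of the overlap cannot be told apart.

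Dnmt3b (chr2:153649450-153687730, plus strand) had 396, 321 and 339 reads in mutants 1, 2 and 3 and 297, 270 and 273 reads in controls 1, 2 and 3. In CPM the mutants had 21.7, 19.12 and 22.6 and the controls 20.2, 16.9 and 15.5. Only mutant 2 lay below the highest control, control 1, and the log2 fold change of 0.27 (SE 0.21) did not pass the test (edgeR adjusted p = 0.634). The ratio of 1.21 had a 95% interval of 0.868 to 1.68. Dnmt3l (chr10:78041947-78063622, plus strand), the partner without catalysis that is best known from germ cells, had 3, 1 and 0 reads in mutants 1, 2 and 3 and 2, 0 and 0 reads in controls 1, 2 and 3. Every library was at or under the floor of 3 reads (0.164 to 0.204 CPM), so no fold is given. Dnmt3l shares 67 bases of exon with Aire on the opposite strand.

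The Tet genes, whose proteins oxidise 5-methylcytosine, gave no call in either direction. Tet3 (chr6:83362373-83459084, minus strand) was at 877, 947 and 1058 CPM in mutants 1, 2 and 3 and 852, 855 and 1057 CPM in controls 1, 2 and 3. Library 3 was the highest of each group, and the ranges overlapped. The log2 fold change was 0.06 (SE 0.15, edgeR adjusted p = 0.913), the ratio 1.04 with a 95% interval of 0.820 to 1.33. It was -0.017 without mutant 3.

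Tet2 (chr3:133463679-133545139, minus strand), which unlike the other Tet proteins has no CXXC domain in its own product, was at 360, 323 and 422 CPM in mutants 1, 2 and 3 and 364, 392 and 443 CPM in controls 1, 2 and 3. Each mutant was lower than the control of its number, but the ranges overlapped (log2 fold change -0.12, SE 0.16, edgeR adjusted p = 0.814, ratio 0.921 with a 95% interval of 0.724 to 1.17). Tet1 (chr10:62804570-62908996, minus strand) was at 93.6, 77.9 and 58.5 CPM in mutants 1, 2 and 3 and 60.7, 103 and 59.4 CPM in controls 1, 2 and 3. Its spread within groups was the widest of the 7 tested genes, with a coefficient of variation of 23.0% in the mutants and 33.5% in the controls. The log2 fold change of 0.04 (SE 0.26, edgeR adjusted p = 0.967) had an interval in ratio of 0.691 to 1.54 and changed sign without mutant 1 (-0.13), control 1 (-0.08) or control 3 (-0.09).

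Levels were compared between genes as CPM per kb of exon, the exons of all annotated transcripts joined. Tet3 was highest in all 6 libraries, at 57.5 ± 5.46 CPM per kb in the mutants and 55.2 ± 7.04 CPM per kb in the controls. Dnmt1 was at 23.7 ± 4.22 in the mutants and 30.7 ± 1.43 in the controls, beside Tet2 (21.8 ± 2.96 and 23.7 ± 2.36), Dnmt3a (20.7 ± 2.21 and 19.3 ± 0.676) and Uhrf1 (15.7 ± 3.45 and 24.5 ± 7.40), each in CPM per kb, mutants before controls. The ranges of these 4 over the 6 libraries overlapped one another, so their order is not set beyond their spread, and Uhrf1 had the lowest mean of the 4 in the mutants but a higher mean than Tet2 and Dnmt3a in the controls. With the longest transcript as length, Dnmt3a was above Dnmt1 in the 3 mutants and below it in the 3 controls, and Tet2 was above Dnmt1 in every library but control 1. Tet1 (4.96 ± 1.14 in the mutants and 4.82 ± 1.61 in the controls) and Dnmt3b (4.14 ± 0.357 and 3.44 ± 0.475) formed the low end and overlapped as well.

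Within each library, Tet3 made up 65.7, 70.1 and 68.8% of the summed per-kb level of the 3 Tet genes in mutants 1, 2 and 3 and 66.7, 63.1 and 67.8% in controls 1, 2 and 3. Tet2 made up 26.7, 23.7 and 27.1% in the mutants and 28.2, 28.7 and 28.1% in the controls. Among Dnmt1, Dnmt3a and Dnmt3b, the share of Dnmt1 was 47.3, 52.6 and 46.0% in mutants 1, 2 and 3 and 57.6, 57.1 and 57.7% in controls 1, 2 and 3. The share of Dnmt3a was 44.3, 40.3 and 43.4% in the mutants and 35.4, 36.7 and 36.4% in the controls. Dnmt3b made up the rest, with 7.10 to 10.6% in the mutants and 5.94 to 7.07% in the controls. The shares of Tet2 and of all 3 Dnmt genes did not overlap between groups, while those of Tet3 and Tet1 did. The 3 Dnmt shares add up to the whole, so they are not separate results, and in CPM Dnmt3a and Dnmt3b did overlap. For Dnmt3b the gap was small, 7.10% in mutant 2 against 7.07% in control 1. Of single genes tested 21.2% had groups without overlap, and how often shares of other gene sets part was not computed. The log2 ratio of Dnmt1 to Dnmt3a, which needs no scaling between libraries, was -0.99 ± 0.171 in the mutants and -0.51 ± 0.0343 in the controls, a difference of -0.48 (two-sided exact permutation p = 0.1, the smallest possible here). The log2 ratio of Tet2 to Tet3 was -1.39 ± 0.144 in the mutants and -1.20 ± 0.0691 in the controls, a difference of -0.19 with the same p of 0.1 in the exact permutation test. Of the 5 ratios computed, the other 3 (Uhrf1 to Dnmt1, Dnmt3b to Dnmt3a and Tet1 to Tet3) overlapped, with exact permutation p of 0.4 to 1. The Dnmt1 to Dnmt3a ratio was chosen after the values had been seen, and none of the 5 could pass a correction for 5 comparisons.

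**Figure D4:**
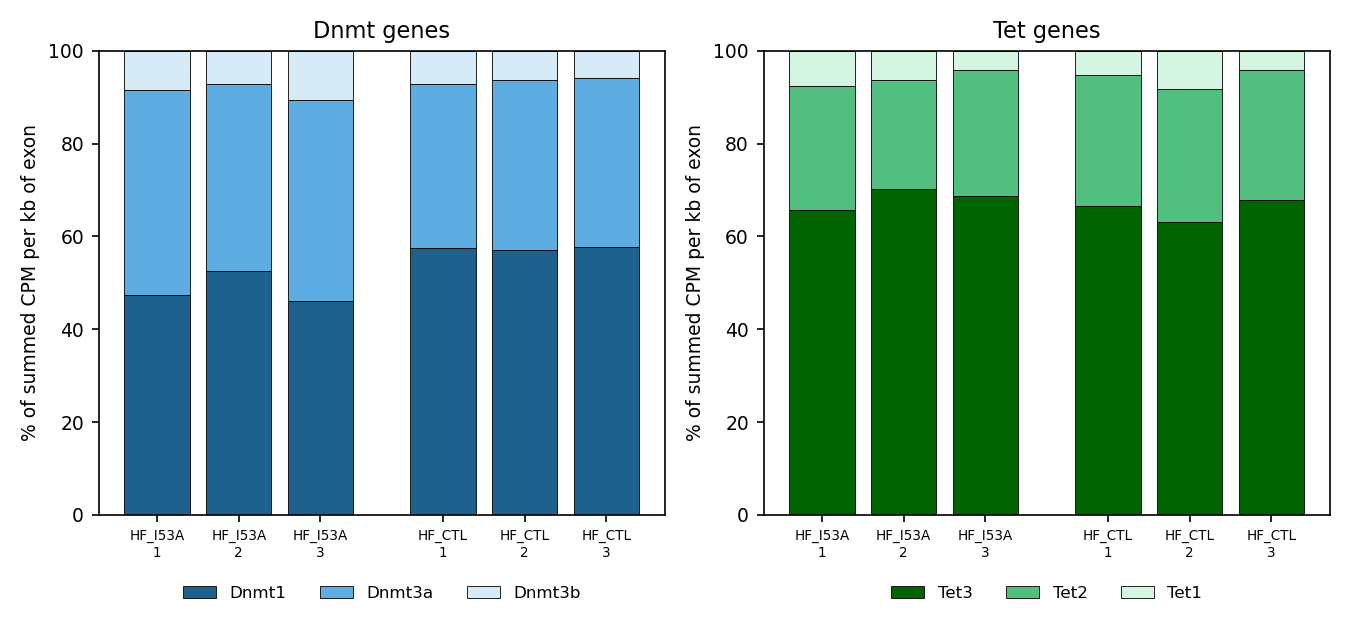
Percent of the summed CPM per kb of exon (vertical axis) taken by each Dnmt gene (left) and each Tet gene (right) in every library, HF_I53A before HF_CTL. Dnmt1 takes 46.0 to 52.6% of the Dnmt bars in the mutants and 57.1 to 57.7% in the controls, and Tet3 takes over 60% of the Tet bars in all 6 libraries.

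A list of partners and regulators of maintenance methylation was read next. It is a mixed list that also holds Smchd1, Trdmt1 and the replication fork genes Lig1 and Pcna, so its counts do not describe maintenance partners alone. Of its 11 genes 10 were tested, 9 had a negative log2 fold change and none was called. The 2 with an unadjusted edgeR p under 0.05 were Smchd1 and Lig1, and the median was -0.34 against 0.00 over all genes. Lig1, which joins nicks behind the fork and is bound by Uhrf1, was at 86.1, 98.6 and 56.4 CPM in mutants 1, 2 and 3 and 132, 188 and 105 CPM in controls 1, 2 and 3, without overlap (edgeR adjusted p = 0.152, and 0.00333 with the block). Smchd1, a silencer of the inactive X chromosome, was at 121 ± 0.677 CPM in the mutants and 175 ± 21.4 CPM in the controls (log2 fold change -0.53, edgeR adjusted p = 0.102, and 0.0199 with the block). Hells, a chromatin remodeller needed for methylation of repeats, was at 36.5 ± 11.7 CPM in the mutants and 59.7 ± 25.3 CPM in the controls (edgeR adjusted p = 0.390, and 0.0236 with the block). Pcna, the sliding clamp, was at 29.5 ± 5.11 CPM in the mutants and 40.6 ± 7.19 CPM in the controls (edgeR adjusted p = 0.366), and near-identical copies may take part of its reads. DESeq2 called Lig1 (adjusted p = 0.0446) and Smchd1 (0.0315). Dppa3, which keeps Uhrf1 off chromatin in oocytes, had 0 reads in all 6 libraries.

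Of 18 genes of base excision repair and other routes of demethylation 14 were tested and none was called (edgeR, 1 at an unadjusted p under 0.05), with a median log2 fold change of -0.11. Neil3, a DNA glycosylase of proliferating cells, was at 41.5, 22.5 and 20.9 CPM in mutants 1, 2 and 3 and 43.7, 64.0 and 49.7 CPM in controls 1, 2 and 3. All mutants were below the controls, mutant 1 by little (log2 fold change -0.89, SE 0.29, edgeR adjusted p = 0.157, and 0.0483 with DESeq2). Parp1, which senses DNA breaks, was at 183 ± 9.88 CPM in the mutants and 145 ± 26.4 CPM in the controls (edgeR adjusted p = 0.406). Apobec1, a cytidine deaminase, and Gadd45a, a stress-response gene, had adjusted p of 0.629 and 0.755. Tdg, the glycosylase that removes the oxidised bases made by Tet proteins, was listed at 1 read over all 6 libraries. Tdg has near-identical copies in the mouse genome, and whether its reads were lost to them was not tested.

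Among 7 readers of methylated CpG, 1 rose. Zfp57, a zinc finger protein that holds methylation at imprinted control regions, was at 30.7, 31.9 and 25.0 CPM in mutants 1, 2 and 3 and 6.94, 4.89 and 12.2 CPM in controls 1, 2 and 3. The groups did not overlap, and the lowest mutant was above the highest control by a wide margin (29.2 ± 3.64 CPM in the mutants and 8.01 ± 3.76 CPM in the controls, log2 fold change 1.86, SE 0.33, edgeR adjusted p = 0.0155). Its call was lost without mutant 1 (adjusted p = 0.0619), mutant 2 (0.0731) or control 1 (0.0796). Zbtb4 had 98.3 ± 10.3 CPM in the mutants and 73.8 ± 11.4 CPM in the controls (edgeR adjusted p = 0.308), and Zbtb38 43.7 ± 3.37 and 62.7 ± 21.8 CPM (0.366). The readers had a median log2 fold change of -0.08, with 4 negative and 3 positive. Of the 7, 3 had an unadjusted edgeR p under 0.05 and 3 had groups without overlap, against 14.9% and 21.2% of all genes tested.

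CXXC proteins, which bind unmethylated CpG and include Kdm2b, the subunit that brings a form of PRC1 to CpG islands, gave no call among 8 tested (edgeR, 1 at an unadjusted p under 0.05, median log2 fold change -0.05). That gene was Cxxc5, at 27.8 ± 4.65 CPM in the mutants and 17.2 ± 7.34 CPM in the controls (edgeR adjusted p = 0.324, and 0.0421 without control 3). Cxxc4, Fbxl19 and Kmt2a had log2 fold changes of -1.24, 0.24 and -0.24, with edgeR adjusted p of 0.436, 0.640 and 0.671. Genes that supply S-adenosylmethionine and 2-oxoglutarate gave no call among 9 tested of 11, none with an unadjusted p under 0.05. Mat2a, which makes S-adenosylmethionine, was at 322 ± 61.0 CPM in the mutants and 372 ± 104 CPM in the controls (edgeR adjusted p = 0.755). Ahcy, which breaks down S-adenosylhomocysteine, and Idh3a, a subunit of a mitochondrial isocitrate dehydrogenase, had log2 fold changes of -0.36 and -0.25 (edgeR adjusted p = 0.636 and 0.668).

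Of 9 histone methyltransferases and partners for H3K9 and H3K36, marks tied to de novo methylation, all 9 had a negative log2 fold change and 1 fell. That was Nsd2, which methylates H3K36, at 148, 129 and 112 CPM in mutants 1, 2 and 3 and 227, 228 and 194 CPM in controls 1, 2 and 3 (log2 fold change -0.74, SE 0.16, edgeR adjusted p = 0.0388). Nsd2 kept its call in 1 of the 6 fits without a library, with an adjusted p of up to 0.160 without mutant 2, and lost it with library totals as the scale (0.0706). The median of the list was -0.26, and its summed level was 1691 to 1803 CPM in the mutants and 2041 to 2107 CPM in the controls. The sum weighs Nsd1 (691 CPM in the mutants and 760 CPM in the controls) and Setd2 (454 and 543 CPM) most, and both overlapped between groups. Summed levels of the maintenance list and of the germline list below did not overlap between groups either. Suv39h2 and Trim28, of the H3K9 pathway, had log2 fold changes of -0.44 and -0.45 (edgeR adjusted p = 0.370 and 0.421), and Setd2, which trimethylates H3K36, one of -0.26 (0.503).

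Germline genes that promoter methylation is known to silence in somatic cells were mostly near 0 in both groups. Of 16 listed, 12 stayed under 1 CPM in every library, among them Dazl and Ddx4, and 5 (Mael, Asz1, Tex101, Hormad1 and Mov10l1) had no read at all. Of the 3 tested genes 1 rose, Tdrd1, a germ cell protein of the piRNA pathway. It was at 74.9, 81.8 and 67.7 CPM in mutants 1, 2 and 3 and 22.9, 24.2 and 24.9 CPM in controls 1, 2 and 3 (log2 fold change 1.64, SE 0.17, edgeR adjusted p = 0.0011), and it was called in every alternative fit. Brdt and Sycp3, a bromodomain protein of the testis and a protein of the meiotic chromosome axis, were not called (edgeR adjusted p = 0.576 and 0.983). Taf7l, below the filter and named after its values were seen, had 31, 9 and 19 reads in mutants 1, 2 and 3 and 3, 0 and 1 reads in controls 1, 2 and 3. Others below the filter went both ways. Stk31, Ddx4 and Tex19.1 had 16, 15 and 15 reads in the mutants and 7, 10 and 1 in the controls, while Syce1 and Slc25a31 had 0 reads in the mutants and 6 and 3 in the controls.

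**Figure D5:**
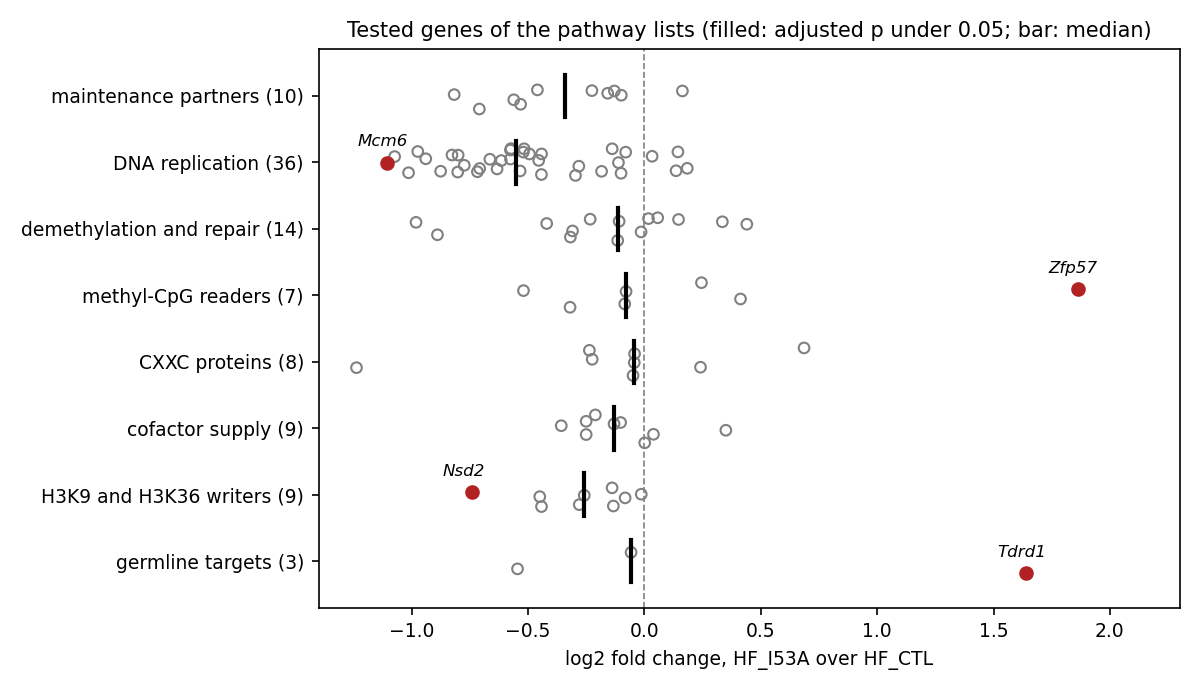
Log2 fold change of HF_I53A over HF_CTL (horizontal axis) for every tested gene of the 8 pathway lists, with the number tested in brackets, black bars at list medians, and filled points for adjusted p under 0.05. Mcm6 and Nsd2 are the filled points below 0, Zfp57 and Tdrd1 those above it, and the replication list sits furthest left with a median of -0.55.

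The genes most like each enzyme were sought by the root mean square difference of log2 CPM over the 6 libraries, each gene centred on its own mean. For Uhrf1, which itself varied by 0.431 on this scale, the nearest were the unnamed model 4732491K20Rik (0.0490), H2afz, the gene of histone H2A.Z (0.0682), and Rad18, a ubiquitin ligase that modifies Pcna (0.0806). H2afz was at 57.4 CPM in the mutants and 88.7 CPM in the controls on average. The model 4732491K20Rik was at 1.68 and 2.62 CPM, so that match rests on few reads. For Dnmt1 (spread 0.249) the nearest were Hmgb1, Kbtbd6 and Casp2, at 0.0537 to 0.0615, and Hmgb1 and H2afz have near-identical copies that can take reads. Kbtbd6 was at 2.08 CPM in the mutants and 2.60 CPM in the controls, also few reads. Genes with a small spread had many such neighbours, 194 within 0.1 of Tet2 and 199 within 0.1 of Tet3, against 7 for Uhrf1 and 3 for Tet1. The nearest were Tbp for Dnmt3a, Thap11 for Dnmt3b, Coa3 for Tet1, Rab21 for Tet2 and Dlg3 for Tet3, and none of the 8 genes was among the nearest 3 of another. Coa3 had few reads as well, at 1.99 CPM in the mutants and 1.98 CPM in the controls.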

How the data were processed

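The authors deposited 1 file per library with whole-number read counts per gene symbol, not normalized (read from the values). TopHat2 2.0.13, Cufflinks 2.2.1, HTSeq 0.6.1, DESeq2 1.6.3 and mm10 are named in the submitters' processing notes, without role or order. Per the labels' protocols, 10 ng of total RNA was amplified as cDNA before sequencing of 100-nucleotide single reads. The sources used here give neither annotation nor strand setting, so an overlap of opposite-strand genes is uncertain. Floors cover counting error only, since the reads were amplified and carry no molecular identifiers.

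Counts were tested with edgeR 4.0.16 (R 4.3.3): TMM, filterByExpr, quasi-likelihood test on group, two-sided, Benjamini-Hochberg adjustment over the 14345 genes that passed. The filter removed 0.0971% of counts. SE were taken from the F statistic, log2 CPM used a prior count of 2, and the steps were tested on simulated data. DESeq2 1.42.0 and limma-voom 3.58.1 were alternatives. Exon lengths and positions came from GENCODE M21 (GRCm38).

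The labels number the libraries 1 to 3 in both groups without saying what a number marks. Deviations from group means correlated at 0.183, 0.187 and 0.373 for same-numbered libraries and at most 0.119 for others. The 3 same-numbered values passed the minimum of 0.1, but so did 0.119, for mutant 2 with control 1. The pairing thus comes from these same 6 libraries, and the p-values of the block hold only if it is real. No pair of the 6 libraries agreed within sampling noise (chi-square per degree of freedom at least 25.1). Nothing says that libraries came from separate animals, so p-values measure the spread between these samples, which may be technical.

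The 8 genes and all lists were chosen with earlier results of these data known. Named are the 8 genes, Ring1 and Rnf2, up to 4 genes a list (called ones, then smallest p), and the 3 nearest patterns, with exceptions stated. Some genes that the rule names are not reported here.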

Additional observations from a re-analysis of the deposited data

How the results depend on the processing

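Among the 7 tested genes, the direction of Dnmt1, Dnmt3a, Dnmt3b, Uhrf1 and Tet2 was the same in all 14 alternatives (other scalings, filters and tests, the replicate block, and each library left out). The call changed for Uhrf1 alone, which passed with the replicate block (log2 fold change -0.62), so 1 of the 7 was called there, and the block changed the call of no other tested gene among the 7. Without 1 library Tet1 ran from -0.13 to 0.35 and Tet3 from -0.017 to 0.18. Likewise, Dnmt1 relative to replication genes ran from -0.059 (without control 2) to 0.29, and Sycp3 from -0.40 to 0.33. The Dnmt1 to Dnmt3a ratio, tried after the data were seen, ran from -0.58 to -0.43.

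Over all genes 430 were called, 372 higher and 58 lower in the mutants. DESeq2 called 986 (739 higher, 247 lower) and the replicate block 1345 (873 higher, 472 lower). Without the low-count filter 109 were lower. Without 1 library the count ran from 163 (without mutant 2) to 664 (without control 3), with 143 to 554 higher and 19 to 110 lower, and it was 218 without mutant 1, 193 without control 1 and 277 without control 2. The 8 pathway lists held 10, 14, 7, 8, 9, 9, 3 and 36 tested genes. In them 4 genes were called, to be read against 3.0% of all genes tested. DESeq2 called 9 there, and the replicate block 17, against 9.38% of all genes with the block. Without 1 library 1 to 12 were called (12 without control 3, 1 without mutant 2 or control 1). The cause was not tested. Other scalings moved the median of all genes by at most 0.05 on the log2 scale. With 3 libraries a group, the 95% intervals of Dnmt3a, Dnmt3b and the Tet genes held both higher and lower levels, and Dnmt3l, at the floor of detection, had no fitted value.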

Other observations

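Libraries numbered 3 stood together across the groups for several of these genes, and how many of all genes do so was not computed. Dnmt3b went the other way, with mutant 3 the highest library (22.6 CPM) and control 3 the lowest (15.5 CPM). Tet3 was at 1058 CPM in mutant 3 and 1057 CPM in control 3, against 852 to 947 CPM in the other 4 libraries. Tet2 was at 422 CPM in mutant 3 and 443 CPM in control 3, against 323 to 392 CPM in the other 4. The summed level of the 36 replication genes was lowest in the same libraries within each group, at 700 CPM in mutant 3 and 1081 CPM in control 3. Hells was at 23.2 CPM in mutant 3 and 32.8 CPM in control 3, against 41.0 and 45.3 CPM in the other mutants and 63.6 and 82.9 CPM in the other controls. Shh, a ligand of the follicle placode and matrix, was at 27.6 CPM in mutant 3 and 47.9 CPM in control 3, against 63.9 and 90.1 CPM in the other mutants and 103 and 151 CPM in the other controls. The labels do not say what the number marks, and its part in these levels was not tested.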
